A study of Mus musculus with 7 samples.

Results

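The mitochondrial ribosomal protein genes were taken as the protein-coding genes whose symbol starts with Mrpl or Mrps followed by a digit, and 77 of the 39179 genes in the authors' deposited table matched. By symbol, 47 belonged to the large subunit (Mrpl) and 30 to the small subunit (Mrps) of the mitochondrial ribosome. They were measured in messenger RNA of regulatory T cells, a Foxp3-expressing class of CD4 T cells that keeps immune responses in check. They had been sorted as CD4+TCRb+CD25hi Foxp3+ cells from the lymph nodes of C57BL/6 mice aged 3 weeks. The dKO group (3 libraries) carried floxed alleles of Id2 and Id3 on both chromosomes together with Foxp3cre (Id2fl/flId3fl/flFoxp3cre). The control group (2 libraries) was heterozygous, with 1 floxed beside 1 normal allele of either gene, and had the same Cre (Id2fl/+Id3fl/+Foxp3cre). Both groups therefore expressed Cre recombinase under Foxp3 control, and the control cells had the floxed alleles in the heterozygous state. A further pair without replicate numbers had 1 library titled dKO and 1 titled control. The genotype tags of this pair are the reverse of its titles, so its libraries are called by their titles and directions in it are by title.

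Mitochondria translate the messenger RNAs of their own small genome, which encode core subunits of the respiratory chain, on a ribosome of their own. The ribosomal RNAs of that ribosome come from mitochondrial DNA, whereas all of its proteins are encoded in the nucleus, made in the cytosol and imported. Many of the proteins have counterparts in the bacterial ribosome, and others occur in mitochondrial ribosomes without a bacterial counterpart. T cells enlarge their mitochondria and mitochondrial translation when they are activated. Id2 and Id3 encode inhibitors of the E protein transcription factors, which bind DNA at E-box sequences.

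Values of the replicated comparison are scaled counts, that is, read counts scaled to a common library size and given as group means in the authors' deposited table. The size factors recovered from low values were 0.929, 0.91 and 0.86 in dKO and 1.29 and 1.09 in control, which puts the depth of the average control library at 1.32 times that of dKO. Whole reads could be recovered for each of the 2 control libraries, called the deeper and the shallower control library, and not for the dKO libraries. Control values thus have an SD, and dKO values are a mean with no SD. The deposited p-values compare the 3 dKO with the 2 control libraries. The labels do not say that each library came from its own animal, so these p-values measure a spread among libraries that may be technical. As a check of the labels, Id2 had 61.1 scaled counts in dKO and 783 in control, and Id3 had 891 in dKO and 1376 in control, in the authors' deposited table. The log2 ratios were -3.68 for Id2 (adjusted p = 1.48e-08) and -0.63 for Id3 (adjusted p = 0.209), per the authors' deposited table from DESeq. The control libraries differed in Kdm5d and Uty, which lie on the Y chromosome, with 601 of their 616 recovered control reads in the deeper library. The group means also differed, with 2.56 scaled counts of Kdm5d in dKO and 112 in control and 17.8 of Uty in dKO and 128 in control (adjusted p = 0.509 and 0.818 in the authors' deposited table from DESeq). In the unnumbered pair, Kdm5d was listed at 0 in the library titled dKO and had 4.91 FPKM in that titled control, and Uty had 0.0153 FPKM in the library titled dKO and 4.47 in that titled control. The part of this difference in the values of the members was not tested. Results are therefore also given against each control library. Of the 9 regulatory T cell markers, Ctla4 rose, and Foxp3 had 10942 scaled counts in dKO and 13481 in control, in the authors' deposited table. All 15 mitochondrially encoded transcripts searched for were listed at 0 in both groups in the authors' deposited table, so the RNAs that this ribosome translates were not measured.

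Most mitochondrial ribosomal protein genes were slightly higher in dKO regulatory T cells, and few passed the test one by one. Of the 77 genes, 64 (83.1%) had a higher mean in dKO in the authors' deposited table, against 49.0% of the 15437 genes whose mean reached 10. Their median log2 ratio was 0.10 (a factor of 1.07), against -0.01 over those 15437 genes. All 77 had a mean of 10 or more. Passing an adjusted p of 0.05 in the authors' DESeq test, 2 of the 77 rose and 0 fell, and 6.56% of all 31641 genes tested passed, 3.38% as higher and 3.18% as lower in dKO. At an unadjusted p of 0.05, 6 of the 77 passed, all of them higher in dKO, against 13.5% of all genes tested. The summed scaled counts were 122015 in dKO and 113552 in control in the authors' deposited table, which was 0.305% of all scaled counts in dKO and 0.292% in control. Fewer cells of a type and less RNA per cell cannot be told apart in these sorted bulk samples.

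The family moved little and in a narrow band compared with genes of like abundance. The other 6531 protein-coding genes within the control range of the members (429 to 4235 scaled counts, leaving out Mrps36-ps1) had a median log2 ratio of 0.00 and an interquartile range of 0.34. The members had an interquartile range of 0.13, and 69 of the 77 had a ratio within 0.25 of 0 on the log2 scale, against 65.4% of those other genes. Adjusted p-values of the authors' deposited table were under 0.05 for 14.2% of the genes of like abundance and unadjusted p-values for 28.1%, against 2 and 6 of the 77 members. The number of calls among the members was therefore below the background, while the share with the higher mean in dKO was above it. With both groups divided by their sum over protein-coding genes in place of the authors' size factors, the median of the members was 0.06 and 70.1% were higher in dKO.

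**Figure D1:**
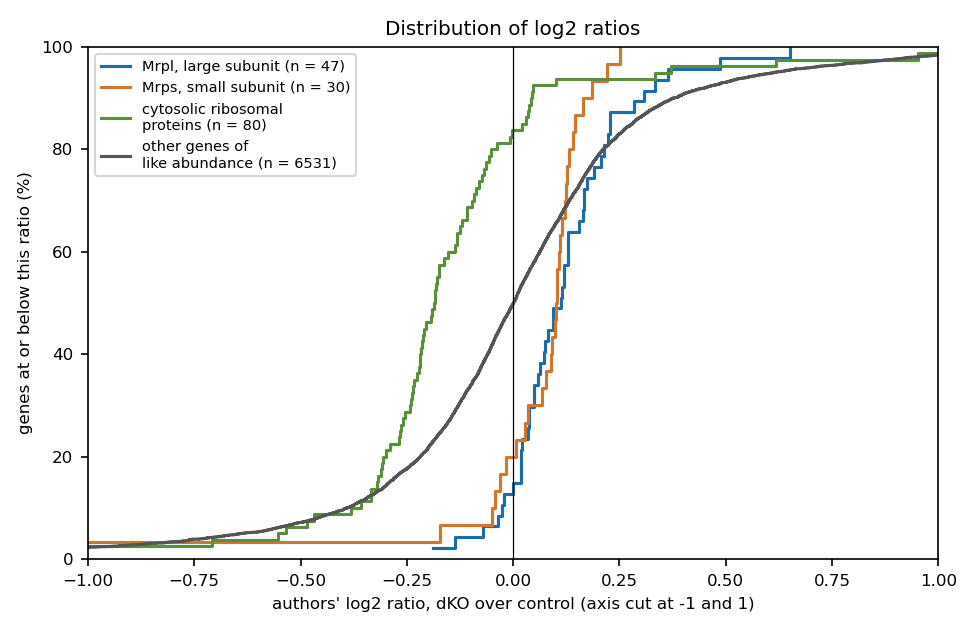
Cumulative share of genes (vertical axis, percent) by the authors' log2 ratio of dKO over control (horizontal axis, cut at -1 and 1) for large subunit genes, small subunit genes, cytosolic ribosomal protein genes and other protein-coding genes of like abundance. Both mitochondrial subunits cross 50% near 0.1, the genes of like abundance at 0.00 and the cytosolic ribosomal proteins at -0.19.

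Against the control libraries one at a time, the dKO mean lay above both in 48 members, between them in 22 and below both in 7. Of 5602 other protein-coding genes of like abundance (up to 3000 scaled counts in control), 40.9% lay above and 40.9% below both. Leaving out Mrps36-ps1, the median log2 ratio of the dKO mean was 0.13 over the shallower control library, with 63 of 76 members higher in dKO. Over the deeper library it was 0.08, with 54 of 76 higher in dKO. Among the 5602 other genes these medians were 0.00 and -0.01. The typical difference between dKO and control was about as large as that between the control libraries themselves, with a median size of 0.11 and 0.11 on the log2 scale, and it was the larger of the differences in 40 of 76 members. For 10 of the 76 members a single pair of whole numbers of reads fits the deposited mean. For the others the pair with the closest libraries was taken, and the next possible pair would set the control libraries at least 0.41 apart on the log2 scale.

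**Figure D2:**
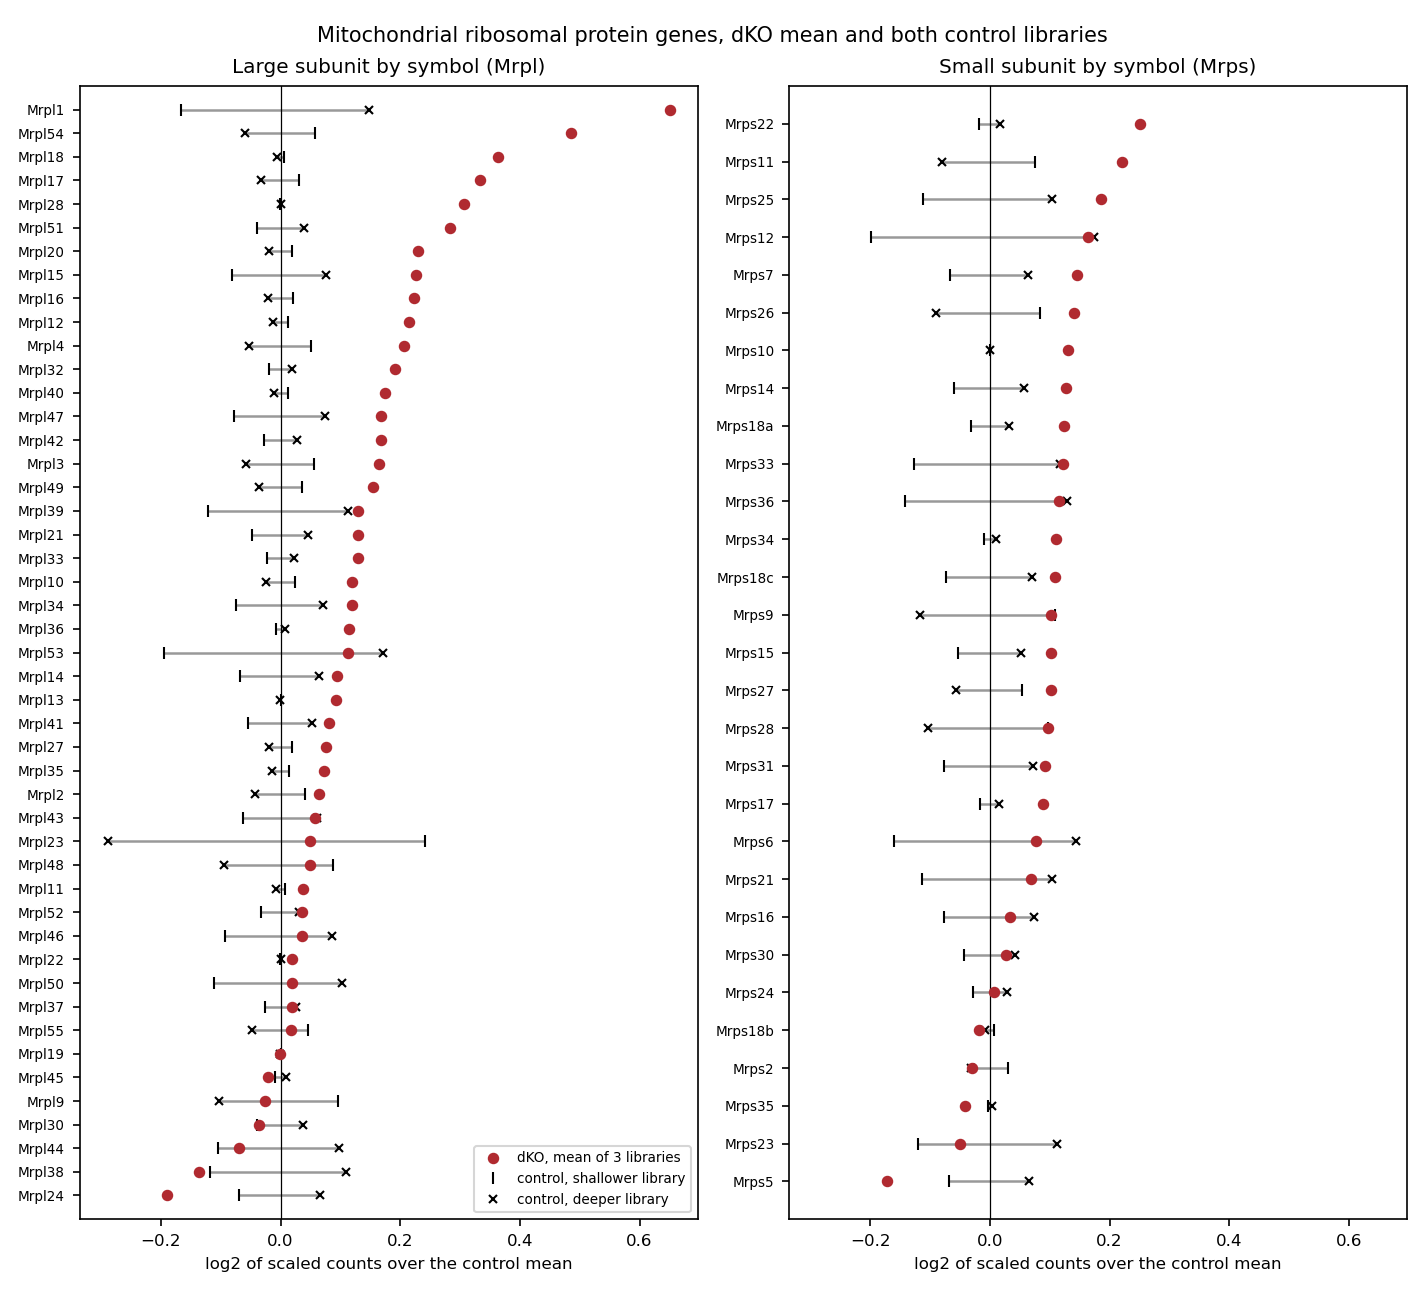
Each row is 1 gene, ordered by the authors' log2 ratio, and the horizontal axis gives the log2 of scaled counts over the control mean. Red circles are the mean of the 3 dKO libraries, and the bar and the cross mark the shallower and the deeper control library. The dKO circle lies to the right of both control marks in 48 of the 77 genes, and Mrpl1 and Mrpl54 stand farthest to the right. Mrps36-ps1 is not drawn.

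Among the large subunit genes, 40 of 47 had a higher mean in dKO, with a median log2 ratio of 0.11, and both genes that passed the test were among them. Mrpl1 (ENSMUSG00000029486, GRCm38 chromosome 5, 96209493 to 96266727, plus strand) encodes the counterpart of the bacterial protein that forms the mobile stalk beside the exit site for transfer RNA. It had 1278 scaled counts in dKO, against 726 in the shallower and 903 in the deeper control library (814 ± 125, SD, n = 2). The dKO mean lay above both control libraries. The log2 ratio of Mrpl1 was 0.65 (adjusted p = 0.0005 in the authors' deposited table from DESeq), and it was 0.82 over the shallower and 0.50 over the deeper control library. The promoter window of Mrpl1, the gene with the largest rise of the family, is shown because it held none of the 6 motifs searched for below. It covers 250 bases before and 50 bases after the RefSeq start (GRCm38.p6, chr5:96209865-96210164, plus strand, 5′ to 3′). The gene as listed in the authors' deposited table starts earlier, at 96209493, so this window does not reach the bases before that listed start.
Mrpl1: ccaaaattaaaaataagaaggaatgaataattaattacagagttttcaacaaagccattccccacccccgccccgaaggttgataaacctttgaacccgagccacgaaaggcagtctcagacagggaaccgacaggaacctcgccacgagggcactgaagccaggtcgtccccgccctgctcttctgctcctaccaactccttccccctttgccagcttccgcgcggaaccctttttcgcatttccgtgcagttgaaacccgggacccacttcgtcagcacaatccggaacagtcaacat

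Mrpl54 (ENSMUSG00000034932, GRCm38 chromosome 10, 81264713 to 81266934, minus strand), a protein of the mitochondrial ribosome without a bacterial counterpart, was the other gene to pass. It had 1394 scaled counts in dKO, against 1035 in the shallower and 955 in the deeper control library (995 ± 56.5, SD, n = 2). The log2 ratio of Mrpl54 was 0.49 (adjusted p = 0.0127 in the authors' deposited table from DESeq). The next 4 genes by size did not pass after adjustment, and their dKO means all lay above both control libraries. Mrpl18, whose bacterial counterpart binds 5S ribosomal RNA, had 3849 scaled counts in dKO, against 3005 and 2980 in the shallower and deeper control libraries. Its log2 ratio was 0.36 (adjusted p = 0.0888 in the authors' deposited table from DESeq). Mrpl17, the counterpart of the bacterial protein of the same number, had 2096 in dKO, against 1701 and 1628 (log2 0.33, adjusted p = 0.156 in the authors' deposited table from DESeq). Mrpl28, also with a bacterial counterpart, had 2349 scaled counts in dKO and 1898 and 1900 in the shallower and deeper control libraries (log2 0.31, adjusted p = 0.222 in the authors' deposited table from DESeq). Mrpl51, specific to mitochondria, had 1768 in dKO and 1413 and 1492 in those control libraries (log2 0.28, adjusted p = 0.33 in the authors' deposited table from DESeq).

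At the other end of the large subunit, 7 genes had a lower mean in dKO, and none passed the test. Mrpl24 (ENSMUSG00000019710, GRCm38 chromosome 3, 87919506 to 87923672, plus strand), the counterpart of a bacterial protein that initiates assembly of the large subunit, had the highest control mean of the family. It had 3713 scaled counts in dKO, against 4035 in the shallower and 4434 in the deeper control library. The dKO mean lay below both control libraries, with a log2 ratio of -0.19 (adjusted p = 0.727 in the authors' deposited table from DESeq). For Mrpl24 the next possible pair of reads would set the control libraries 0.41 apart on the log2 scale. Its control mean was also above the limit of 3000 scaled counts used for the other genes of like abundance. The values of its single control libraries and the place of the dKO mean thus depend on the pair chosen. Mrpl38, specific to mitochondria, had 950 scaled counts in dKO, against 962 and 1126 in the shallower and deeper control libraries (log2 -0.14 in the authors' deposited table). Mrpl44, which carries a fold of the ribonuclease III family, had 1041 scaled counts in dKO, between 1016 in the shallower and 1169 in the deeper control library. The other 38 large subunit genes had log2 ratios between -0.04 and 0.23 in the authors' deposited table. Mrpl12, whose bacterial counterpart forms the stalk that recruits translation factors, was among these 38, with 2737 scaled counts in dKO and 2359 ± 27.6 in control (SD, n = 2; log2 0.21).

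Of the 30 small subunit genes, 24 had a higher mean in dKO, and none passed the test in either direction. Their median log2 ratio was 0.10, and at an unadjusted p of 0.05 none passed either, in the authors' deposited table from DESeq. The dKO mean lay above both control libraries in 16 of them, between in 11 and below both in 3, against 32, 11 and 4 in the large subunit. The highest ratio was that of Mrps22, specific to mitochondria, with 935 scaled counts in dKO, against 776 and 795 in the shallower and deeper control libraries (log2 0.25, adjusted p = 0.548 in the authors' deposited table from DESeq). Mrps11, whose bacterial counterpart lies on the platform of the small subunit, had 1146 in dKO, against 1036 and 931 (log2 0.22 in the authors' deposited table). Mrps12, the counterpart of a protein of the decoding centre, had 1089 in dKO, between 847 in the shallower and 1097 in the deeper control library. Its log2 ratio of 0.16 was thus smaller than the gap between the control libraries. Mrps5, whose bacterial counterpart lies near the entry of the messenger RNA channel, had 1692 in dKO, against 1818 and 1994 in the shallower and deeper control libraries (log2 -0.17, adjusted p = 0.861 in the authors' deposited table from DESeq). Without the shallower control library the median of the small subunit genes was 0.04 and without the deeper it was 0.13, and the medians of the large subunit were then 0.09 and 0.13. The difference between the subunits was not tested.

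The symbols of the family do not all follow the place of the protein. Mrps18a, Mrps18b and Mrps18c are paralogs of 1 bacterial protein, of which Mrps18a sits in the large subunit and the other two sit in the small subunit. Mrps18a had 1252 scaled counts in dKO and 1149 ± 35.8 in control (SD, n = 2), and Mrps18c had 1092 in dKO and 1013 ± 71.7 in control. Mrps18b had 1093 in dKO and 1107 ± 8.1 in control. None of the 3 paralogs passed the test, with log2 ratios of 0.12, 0.11 and -0.02 in the authors' deposited table. Mrps30, a large subunit protein in spite of its symbol, had 1594 scaled counts in dKO and 1563 ± 65.9 in control (SD, n = 2), with a log2 ratio of 0.03. Mrps36 is now known as a subunit of the 2-oxoglutarate dehydrogenase complex and had 844 in dKO and 779 ± 103 in control (SD, n = 2; log2 0.12). Placed by their position in the ribosome, 49 large subunit genes had a median log2 ratio of 0.11 and 26 small subunit genes one of 0.10, the same as by symbol. The 46 members with a bacterial counterpart had a median of 0.11, with 40 higher in dKO, and the 29 specific to mitochondria had a median of 0.09, with 23 higher in dKO, in the authors' deposited table. Of the 3 paralogs, Mrps18c was counted with a bacterial counterpart, and Mrps18a and Mrps18b were counted as specific to mitochondria.

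Mrps36-ps1 (GRCm38 chromosome 17, 53866417 to 53867041, minus strand), named as a pseudogene and listed as protein-coding in the authors' deposited table, stood apart from all other members. It had 12.5 scaled counts in dKO and 38.4 in control, a log2 ratio of -1.62 (adjusted p = 1 in the authors' deposited table from DESeq). Its control reads were 83 in the shallower and 1 in the deeper library, so a single library gave its control mean. Over 306 aligned bases its transcript was 97.4% identical to that of Mrps36, and reads of the 2 genes may be shared.

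Abundance differed far more between members than between groups. Per kilobase of exon in the authors' deposited table, the median member had 801 scaled counts in dKO and 767 in control, and the large subunit genes had 806 in dKO and 782 in control. The small subunit genes had medians of 717 in dKO and 630 in control per kilobase, Mrps36-ps1 included. Mrpl52, specific to mitochondria and with the shortest exon length of the family (412 bases), was highest per kilobase, with 5413 in dKO and 5278 in control. Mrpl42 followed in both groups with 3019 in dKO and 2689 in control. The third was Mrpl18 in dKO (2753 in dKO and 2141 in control) and Mrps16 in control (2606 in dKO and 2544 in control). Leaving out Mrps36-ps1, the lowest per kilobase in both groups were Mrps10 (120 in dKO and 110 in control) and Mrpl47 (201 in dKO and 179 in control). Mrpl1 was the third lowest in control (298 in dKO and 190 in control), and in dKO that place was held by Mrpl48 (216 in dKO and 209 in control). Exon lengths in that table cover all exons of a gene and reach 8079 bases in Mrps10, which lowers the per-kilobase level of genes with long alternative exons. Leaving out Mrps36-ps1, a member had 410 to 4408 recovered reads in the shallower and 614 to 5703 in the deeper control library. The SD between the control libraries was a median of 5.1% of the control mean.

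**Figure D3:**
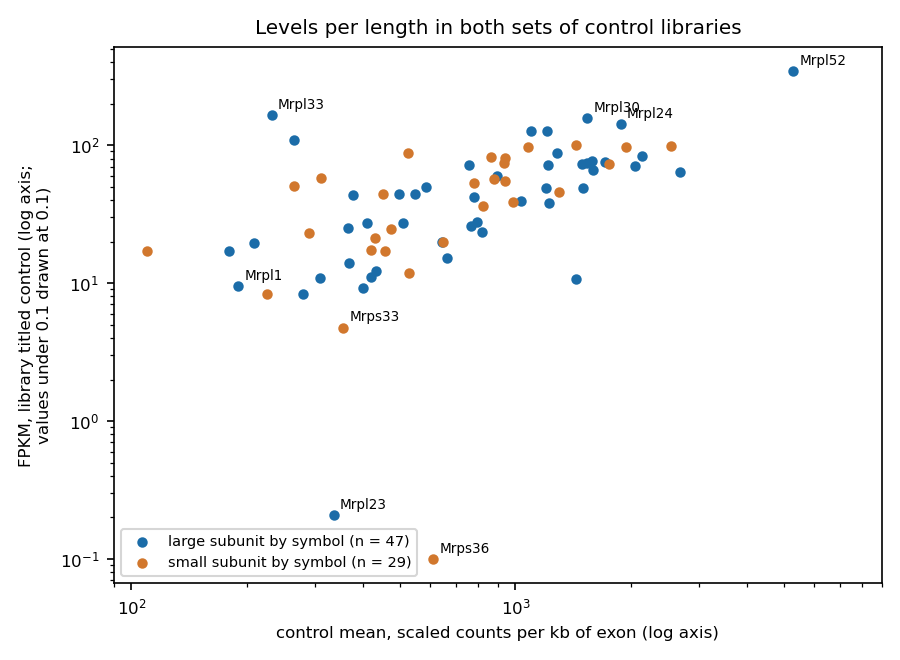
Each point is 1 gene, with the control mean in scaled counts per kilobase of exon on the horizontal axis and FPKM in the library titled control of the unnumbered pair on the vertical axis, both on log axes. Mrpl52 is highest on both, while Mrps36 and Mrpl23 lie far below the other genes in FPKM and Mrpl33 lies above its place by scaled counts.

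Reads of a few members can be shared with near-identical copies or overlapping genes. Of 75 members with a GENCODE transcript sequence to search, 7 had a copy elsewhere with reads, at 95% identity or more over at least 200 bases and at least 50% of the transcript. Mrpl23, whose bacterial counterpart lines the exit of the peptide tunnel, had 618 scaled counts in dKO, between 706 in the shallower and 489 in the deeper control library. Its copy Mrpl23-ps1 on chromosome 2, identical over 540 bases, had 750 in dKO and 880 in control in the authors' deposited table. Summed over gene and copy, the log2 ratio of Mrpl23 was -0.11, against 0.05 for the gene alone. Mrpl48-ps on chromosome 4, 98.0% identical to Mrpl48, fell to 1.08 scaled counts in dKO, against 58.6 and 58.3 in the shallower and deeper control libraries (log2 -5.76, adjusted p = 1.5e-15 in the authors' deposited table from DESeq). Mrpl48 itself had 1322 in dKO and 1277 ± 114 in control (SD, n = 2), and its sum with the copy had a log2 ratio of -0.01, against 0.05 for the gene alone. The sums moved the log2 ratio by more than 0.1 in 1 of the 7, and with them the family median stayed at 0.10 with 62 of 77 higher in dKO. Overlap with another gene is marked for 32 members in the authors' deposited table, among them Mrpl18, Mrpl17, Mrpl24, Mrpl44 and Mrps11, and use of the strand in counting is not stated in the sources used here. Without those 32, the median was 0.10 and both genes that passed remained.

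Members often shared a start region with a gene on the opposite strand. A protein-coding neighbour starting head to head, with at most 1000 bases between the starts or 500 bases of overlap, was found for 25 of the 77 members (32.5%), against 14.6% of 12961 expressed protein-coding genes. Mrps11 and Mrpl46 are such a pair of members, on chromosome 7, with log2 ratios of 0.22 and 0.04 in the authors' deposited table. Mrps12 lies opposite Sars2, which encodes the mitochondrial seryl-tRNA synthetase (log2 0.16 for Mrps12 and 0.08 for Sars2 in the authors' deposited table). Among the measured neighbours, 2 rose and 3 fell, beside members that did not pass. Ncapd2, a condensin subunit that starts 206 bases from Mrpl51, had 10330 scaled counts in dKO and 5959 in control (log2 0.79, adjusted p = 2e-07 in the authors' deposited table from DESeq). Eme1, a subunit of a structure-specific endonuclease opposite Mrpl27, had 528 in dKO and 341 in control (log2 0.63, adjusted p = 0.0039 in the authors' deposited table from DESeq). By the authors' deposited table, the neighbours with a fall were Mitd1 beside Mrpl30 (log2 -0.48), Pnpla7 beside Mrpl41 (log2 -0.68) and Zfp661 beside Mrps5 (log2 -0.83). Members with such a neighbour had a median log2 ratio of 0.10, and so had members without one.

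Promoter windows of 300 bases from RefSeq (GRCm38.p6) were found for 67 members and searched on both strands for 6 motifs. The ETS motif CCGGAAG, which GABP binds, was in 24 of the 67 (35.8%), against 19.9% of 9490 other expressed genes and 8.86% of all 32851 windows. The YY1 motif AAGATGGCG was in 8 (11.9%), against 3.46% of the other expressed genes and 1.403% of all windows. The NRF-1 core motif CGCATGCG was in 7 (10.4%), against 4.32% of the other expressed genes and 1.87% of all windows. NRF-1, GABP and YY1 are known as regulators of nuclear genes of mitochondrial function. The 3 E-box motifs had lower shares in the members than in the other expressed genes. CACGTG, the E-box bound by MYC, was in 5 (7.46%, against 11.7% of the other expressed genes and 7.15% of all windows), CAGCTG in 10 (14.9%, against 18.0% and 16.3%) and CACCTG in 9 (13.4%, against 21.5% and 20.2%). Members with the ETS motif had a median log2 ratio of 0.12 (n = 24) and members without it 0.09 (n = 43). Those with CAGCTG had a median of 0.04 (n = 10) and those without it 0.11 (n = 57). For CACGTG the medians were 0.11 with it (n = 5) and 0.10 without it (n = 62). For CACCTG they were 0.11 with it (n = 9) and 0.10 without it (n = 58). With the NRF-1 core motif the median was 0.12 (n = 7) and without it 0.10 (n = 60). With the YY1 motif it was 0.11 (n = 8) and without it 0.10 (n = 59). These are counts of letters in a window and not of bound sites, and none of the differences was tested.

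The windows of 4 members are shown because they carry these motifs or, for the lowest ratio among the members without Mrps36-ps1, lack them, with the motif in capitals, 5′ to 3′ on the strand of the gene. In Mrpl18 (chr17:12916042-12916341, minus strand) the ETS motif starts 240 bases before the RefSeq start. That window lies inside the gene as listed in the authors' deposited table (12911349 to 12916345). In Mrpl17 (chr7:105811038-105811337, minus strand) an ETS motif starts 237 bases before it and the NRF-1 core motif 10 bases before it. In Mrps11 (chr7:78782881-78783180, plus strand) the YY1 motif reads on the opposite strand, with its first base 108 bases before the start. The window of Mrpl24 (chr3:87919294-87919593, plus strand) held none of the 6 motifs.
Mrpl18: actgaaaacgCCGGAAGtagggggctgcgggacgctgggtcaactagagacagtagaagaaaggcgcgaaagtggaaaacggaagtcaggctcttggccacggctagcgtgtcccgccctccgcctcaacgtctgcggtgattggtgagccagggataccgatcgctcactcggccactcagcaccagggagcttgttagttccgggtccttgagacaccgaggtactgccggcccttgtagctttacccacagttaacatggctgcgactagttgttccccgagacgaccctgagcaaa
Mrpl17: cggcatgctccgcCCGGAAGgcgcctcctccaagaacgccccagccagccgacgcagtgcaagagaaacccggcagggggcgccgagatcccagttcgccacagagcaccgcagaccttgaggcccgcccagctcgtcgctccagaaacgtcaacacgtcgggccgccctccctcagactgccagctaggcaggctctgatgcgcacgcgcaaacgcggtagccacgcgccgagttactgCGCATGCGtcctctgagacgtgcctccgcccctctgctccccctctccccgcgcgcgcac
Mrps11: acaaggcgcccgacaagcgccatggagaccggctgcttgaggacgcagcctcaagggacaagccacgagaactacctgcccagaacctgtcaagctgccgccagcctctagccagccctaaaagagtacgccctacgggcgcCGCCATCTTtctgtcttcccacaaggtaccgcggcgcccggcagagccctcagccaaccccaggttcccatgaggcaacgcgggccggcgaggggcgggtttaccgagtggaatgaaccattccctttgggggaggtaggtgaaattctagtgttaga
Mrpl24: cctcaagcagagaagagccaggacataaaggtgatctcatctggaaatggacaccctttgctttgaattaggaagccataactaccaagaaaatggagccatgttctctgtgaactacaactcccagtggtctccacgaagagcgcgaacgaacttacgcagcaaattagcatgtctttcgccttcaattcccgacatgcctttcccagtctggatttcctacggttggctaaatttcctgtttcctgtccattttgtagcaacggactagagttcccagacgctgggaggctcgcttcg

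Among the other genes of mitochondrial translation, the protein components of the ribosome with other symbols had a positive median, and the assembly, factor and synthetase genes had medians at or below 0. Mitoribosomal proteins that carry other symbols were higher in dKO in 6 of 7, with a median log2 ratio of 0.13 and none past the test. Among them, Ict1, a peptidyl-tRNA hydrolase built into the large subunit, had 2037 scaled counts in dKO and 1662 in control, and Mrp63 had 1722 in dKO and 1461 in control, in the authors' deposited table. Of 13 mitochondrial translation factors, 6 were higher in dKO, with a median of -0.01 and none past the test. The elongation factor gene Gfm1 had a log2 ratio of 0.19 and the release factor gene Mtrf1 one of -0.25 in the authors' deposited table. Another 31 genes belonged to ribosome assembly and ribosomal RNA modification, of which 11 were higher in dKO, with a median of -0.07 and none past the test. Ybey, an endoribonuclease, had 287 in dKO and 201 in control (log2 0.51), and the methyltransferase gene Mrm1 had 426 in dKO and 606 in control (log2 -0.51), in the authors' deposited table. Their adjusted p-values were 0.0989 and 0.108 in the authors' deposited table from DESeq.

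Among 17 mitochondrial aminoacyl-tRNA synthetase genes, 1 rose and 2 fell, 6 of 17 were higher in dKO and the median was -0.05, by the authors' deposited table. Ears2, for glutamate, fell to 386 in dKO, against 557 in control, and Wars2, for tryptophan, fell to 304 in dKO, against 429 in control, in the authors' deposited table. Among 12 genes of mitochondrial DNA replication and transcription, 5 were higher in dKO, and Tk2, the mitochondrial thymidine kinase, fell (1070 scaled counts in dKO and 1552 in control, log2 -0.54, adjusted p = 0.0038 in the authors' deposited table from DESeq). Of 12 regulators of mitochondrial biogenesis, 7 were higher in dKO, with a median of 0.03 and none past the test. Among the 7, Mycn and Ppargc1a were near the floor, with 5.95 and 7.03 scaled counts in dKO and 2.61 and 4.97 in control. At an unadjusted p of 0.05 in the authors' DESeq test, 3 passed, all lower in dKO, against 13.5% of all genes tested. They were Ppargc1b (log2 -0.48), Pprc1 (log2 -0.37) and Nfe2l2 (log2 -0.34). Gabpa, a GABP subunit, had 3508 in dKO and 3005 in control, and Ppargc1b, the coactivator PGC-1beta, had 309 in dKO and 430 in control, in the authors' deposited table.

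The proteins of the cytosolic ribosome lay on the other side of 0. Of 80 such genes with a ratio, 13 were higher in dKO, with a median log2 ratio of -0.19, and 2 rose and 6 fell by the authors' deposited table. The lowest ratio was that of Rpl3, with 225 scaled counts in dKO and 31322 in control in the authors' deposited table, against 132 FPKM in the library titled dKO and 58.9 in that titled control. Near-identical copies were not searched for in this list, so the values of its single genes are given without that check. Summed over the list, the cytosolic ribosomal proteins had a log2 ratio of -0.15 and the mitochondrial ribosomal proteins one of 0.10. In the unnumbered pair, 43 of 81 cytosolic ribosomal protein genes were higher in the library titled dKO, with a median of 0.03.

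**Figure D4:**
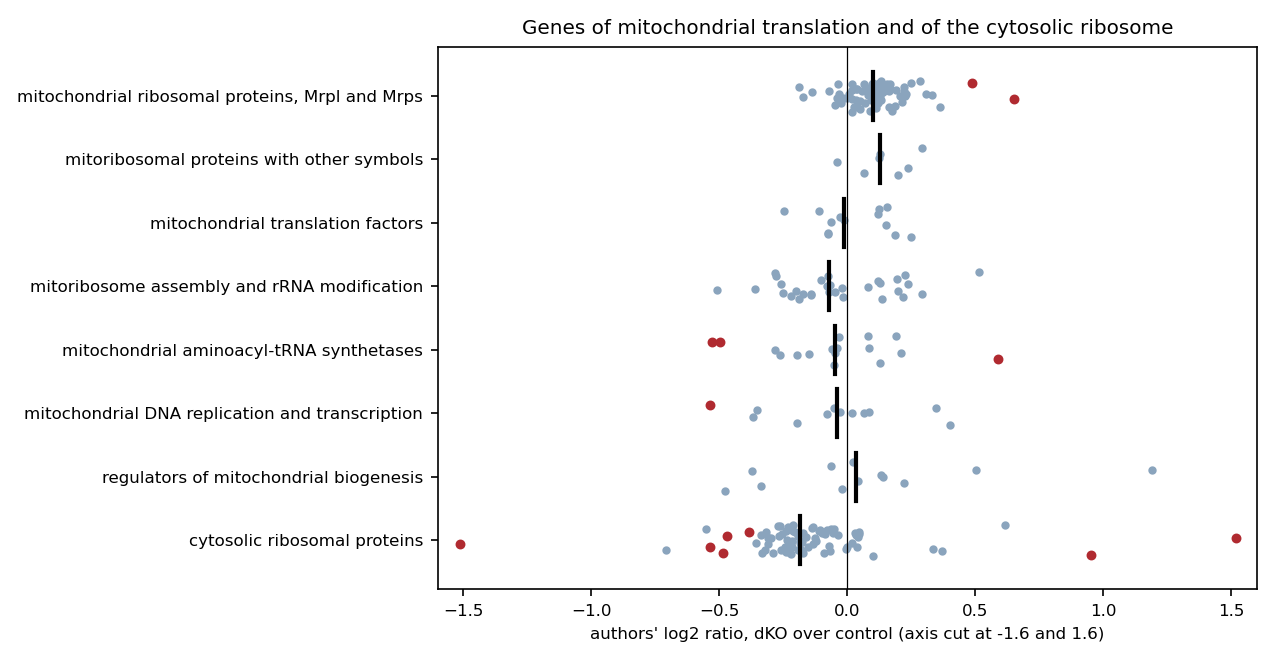
Each point is 1 gene, with the authors' log2 ratio of dKO over control on the horizontal axis (cut at -1.6 and 1.6) and the gene lists down the page. Red points passed an adjusted p of 0.05, and black lines mark medians. Points of the Mrpl and Mrps genes lie close together around a median of 0.10, and those of the cytosolic ribosome around -0.19.

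Markers of other cell types and of dividing cells were measured beside these values. All 12 markers of dividing cells rose in the authors' deposited table, with a median log2 ratio of 1.07 and a summed level of 89351 in dKO and 42310 in control. Of 7 markers of plasma cells, 2 rose (Mzb1 and Prdm1), and the summed level of those above 0 in both groups was 18896 in dKO and 11624 in control, with Tnfrsf17 at 0 in dKO. Of 8 markers of CD8 T and NK cells none passed, and the sum of those above 0 in both groups was 2908 in dKO and 902 in control, of which Gzma had 2006 in dKO and 59.6 in control in the authors' deposited table. Summed B cell markers were 1101 in dKO and 1011 in control, mostly Cd79b (1006 in dKO and 894 in control in the authors' deposited table), while 5 of the 8 were lower in dKO, with a median log2 ratio of -0.37 and none past the test. Summed myeloid markers were 362 in dKO and 350 in control. Stromal and endothelial markers summed to 4563 in dKO and 4902 in control, mostly Pecam1, with Ccl19 and Ccl21a at 0 in dKO. Of the 6 with a ratio, 5 were lower in dKO, with a median of -0.47, and Col1a2 fell (25.6 scaled counts in dKO and 108 in control, log2 -2.08, adjusted p = 0.0034 in the authors' deposited table from DESeq). The part of these cells, and of cell division, in the values of the mitochondrial ribosomal proteins was not tested.

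In the unnumbered pair, with 1 library of each title and no replicate, the deposited values are FPKM per RefSeq transcript, summed here per gene. Ratios are log2 of FPKM plus 1, which understates the change of low genes. As a check of the titles, Id2 had 9.69 FPKM in the library titled dKO and 18.6 in that titled control, and Id3 had 221 FPKM in the library titled dKO and 160 in that titled control. Id3 thus ran against the titles and Id2 with them, and the genotype tags reverse the titles, so these leave the directions in the pair open to doubt. By title, all 12 markers of dividing cells, which rose in the replicated comparison, were higher in dKO, with a median log2 ratio of 0.73. Ctla4, Mzb1 and Prdm1, which also rose there, had log2 ratios of 1.16, 5.03 and 0.73 by title. Col1a2, which fell there, had 0.02. Which of the labels is right was not tested. Of 76 members with an entry, 60 (78.9%) were higher in the library titled dKO, against 50.9% of the 8678 genes that reached 5 FPKM in either library. The median log2 ratio was 0.16 over all members, 0.23 in the large subunit and 0.11 in the small subunit, against 0.01 over those 8678 genes. Turned to follow the genotype tags, 16 of 76 (21.1%) would be higher in dKO, with a median of -0.16 over all members, -0.23 in the large and -0.11 in the small subunit. None of the 85 transcript entries had a q under 0.05 in the authors' deposited table from Cuffdiff, and 1 had an unadjusted p under 0.05. That entry belonged to Mrps10, which had 21.2 FPKM in the library titled dKO and 0.0106 in the one titled control, while another entry of the same gene had 0.0797 FPKM in the library titled dKO and 7.48 in that titled control, in the authors' deposited table. Summed over its 3 entries, Mrps10 had 23.8 FPKM in the library titled dKO and 17.2 in that titled control.

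By sign and by title, 51 members were higher in dKO in both comparisons and 3 were lower in both, whereas by the genotype tags 13 would be higher in both and 9 lower in both. Another 13 were higher in the replicated dKO mean and lower in the library titled dKO, and 9 the reverse. Mrpl1 had 14.1 FPKM in the library titled dKO and 9.47 in that titled control (log2 0.53). Mrpl54 had 164 FPKM in the library titled dKO and 127 in that titled control, and Mrpl18 had 118 FPKM in the library titled dKO and 84.0 in that titled control. Mrpl24 had 122 FPKM in the library titled dKO and 142 in that titled control, and Mrps5 had 19.2 FPKM in the library titled dKO and 23.2 in that titled control. By title, these 5 genes had the same sign in both comparisons. Mrpl38 and Mrpl44, with negative ratios in the replicated comparison, had 29.6 and 33.8 FPKM in the library titled dKO and 27.5 and 26.0 in that titled control. By title, the highest ratio of the pair was that of Mrps18c, with 99.3 FPKM in the library titled dKO and 54.7 in that titled control, and the lowest was that of Mrpl49, with 21.3 FPKM in the library titled dKO and 27.7 in that titled control, and by the genotype tags these places would be exchanged.

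**Figure D5:**
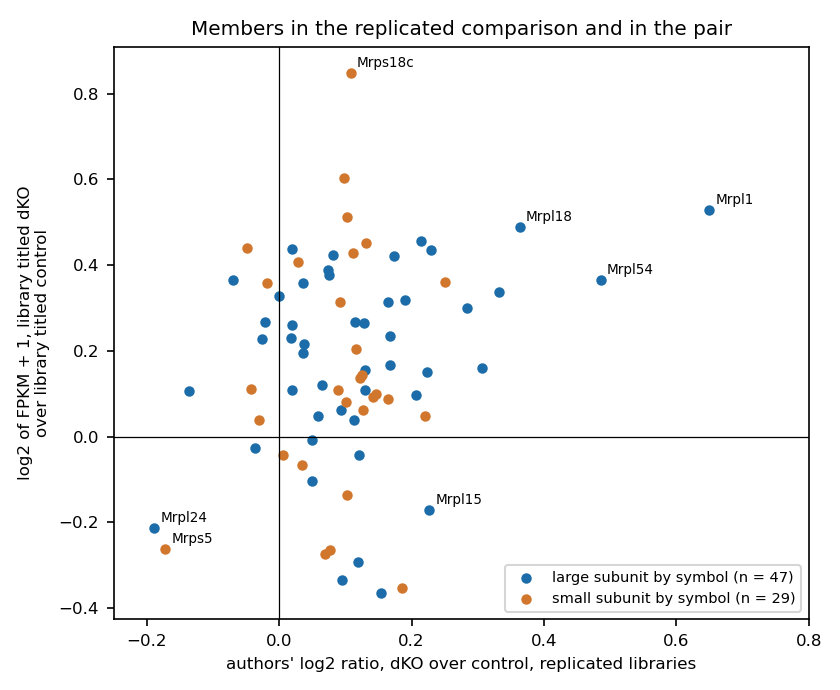
Each point is 1 gene, with the authors' log2 ratio of the replicated comparison on the horizontal axis and the log2 ratio of FPKM plus 1 in the unnumbered pair on the vertical axis, both dKO over control, the second by title and of the opposite sign by the genotype tags. Above and to the right of 0 lie 51 of the 76 genes, Mrpl1 and Mrpl54 among them, while Mrpl24 and Mrps5 lie at the lower left.

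Ordered by the sum of both libraries in FPKM, which is per length, Mrpl52 was highest with 392 in the library titled dKO and 343 in that titled control. Mrpl33 followed with 198 FPKM in the library titled dKO and 165 in that titled control, then Mrpl30 with 155 in dKO and 158 in control and Mrpl20 with 171 in dKO and 126 in control, by title. The median member had 54.2 FPKM in the library titled dKO and 44.5 in that titled control. Mrps36 was lowest, with 0.151 FPKM in the library titled dKO and listed at 0 in that titled control, and Mrpl23 had 0.203 FPKM in the library titled dKO and 0.209 in that titled control. Mrps33 had 5.34 FPKM in the library titled dKO and 4.76 in that titled control, and Mrps25 had 6.35 FPKM in the library titled dKO and 8.39 in that titled control. Mrpl23 and Mrps36 had 618 and 844 scaled counts in dKO in the authors' deposited table of the replicated comparison, so their low FPKM is not shared by that table. Both genes have near-identical copies, but so does Mrpl30, which was among the highest in FPKM. A link between copies and FPKM was not tested.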

How the data were processed

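Messenger RNA libraries were made with dUTP marking of the strand, per the labels' protocols. For the replicated comparison, the authors' deposited table holds a signal per gene and group, found from its values to be the mean of read counts divided by size factors, with the deposited log2 ratio of these means and the deposited p-values, raw and adjusted by Benjamini-Hochberg. RSEM and DESeq, without versions, and build mm10 (GRCm38) are named in the submitters' processing notes. For the unnumbered pair, the deposited FPKM values and q-values came from Cuffdiff (version given as 0.0.6) after TopHat 1.4.0 on build mm9, per the submitters' processing notes.

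Tests on counts per library had been planned. The table holds group means, so the authors' test was used as deposited, over 31641 genes, and no test was added. The whole reads of both control libraries were solved from each control mean within 6e-05. Means of 8 to 500 had exactly 1 solution in all those sampled, and for higher means the solution with the closest libraries was taken. The method was tested on simulated data in which both control libraries were drawn around the same mean for each gene, so wide gaps between them were rare. A pass was required only up to a mean of 3000 scaled counts. Mrpl24 and Mrpl30 had control means above that limit. The dKO means had too many solutions. Pair ratios used a pseudocount of 1 FPKM, and 96.0% of 27901 entries had a gene symbol in RefSeq. Copies were searched with BLAST 2.17.0 in GENCODE M21 transcripts, and promoter windows came from RefSeq.

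The members and gene lists were chosen with earlier results of these data known. The genes named are those past the test, the 5 largest ratios each way, the 4 highest and 4 lowest in FPKM, Mrps18a to Mrps18c, Mrps30, Mrps36, and those of other lists with the smallest adjusted p. A few genes that this rule takes are left out here. Further genes, among them Mrpl51, Mrpl12, Mrps11, Mrps12, Mrps22, the copies and the neighbours, were named after their values were seen. Alternatives were other scalings, filters, subunit assignments, single control libraries, sums with copies (added after seeing the data) and a shorter promoter window. Python 3.11.15 was used with pandas 2.3.3 and numpy 2.4.6.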

Additional observations from a re-analysis of the deposited data

How the results depend on the processing

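The dKO values exist as a mean of 3 libraries and the control libraries as recovered reads, so no fit or test with a library left out could be made. No paired analysis was possible because the dKO libraries are deposited as a group mean and the control libraries could not be matched to replicate numbers. The count of 2 members past the test was 3 at an adjusted p of 0.1 and 3 when adjusted over protein-coding genes whose mean reached 10. In the unnumbered pair the family median log2 ratio was above 0 by title and below 0 by the genotype tags. In the replicated comparison it stayed above 0 under every alternative run, for all members and for each subunit. Divided by the sum over protein-coding genes, which moves the median of all genes to -0.05, it was 0.061 for all members and 0.072 for the large subunit. The shares higher in dKO were then 70.1% and 70.2%. Divided by the sum over cytosolic ribosomal protein genes, which moves the median of all genes to 0.14, it was 0.25 for all members, 0.26 for the large and 0.25 for the small subunit, with 96.1% of all members and 97.9% of the large subunit higher in dKO. With 1 control library left out, the share higher in dKO was 71.4% to 81.8% for all members, 76.6% to 83.0% for the large and 63.3% to 80% for the small subunit, medians were 0.08 to 0.13, 0.09 to 0.13 and 0.04 to 0.13, and the median control level was 722 to 772 scaled counts per kilobase. In the 150 bases nearest the start, the NRF-1 core was left in 4 members (5.97%, against 3.21% of other expressed genes). The ETS motif was left in 21 (31.3%, against 15.5%) and the YY1 motif in 7 (10.4%, against 2.73%). CACGTG was left in 2 (2.99%, against 7.58%), CAGCTG in 5 (7.46%, against 10.6%) and CACCTG in 5 (7.46%, against 10.3%). Ratios of the size of the family median lie within the gap between the 2 control libraries for many single genes, and the depth of the dKO libraries, 0.86 to 0.929 by size factor, does not give their spread.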
